A study of Mus musculus with 10 samples.

Results

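Genes that mark the endothelium of blood and lymphatic vessels were read in mouse skin to ask how vessel transcripts compared between baricitinib treated and vehicle treated mice in a graft model of alopecia areata. The list of 42 genes was drawn up by name from known endothelial genes, by a rule that uses no measured value but with earlier results of these data known. All 42 were measured, among 18193 genes that could be named on the array. Where a gene had several probe sets (the groups of short DNA probes that each give 1 reading), it was represented by the probe set with the highest mean over the 10 arrays. The 42 genes had 74 probe sets in all.

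Every mouse was a C3H/HeJ recipient, free of disease at grafting, that had been given skin from a C3H/HeJ mouse with spontaneous hair loss, so the vehicle mice carry the graft as well. Baricitinib, which blocks JAK1 and JAK2, the kinases that relay many cytokine signals, or its vehicle was delivered systemically from a pump implanted at grafting, and skin was sampled at week 12. There were 5 baricitinib and 5 vehicle arrays, each a sample of its own in the labels and taken here as 1 mouse. The labels give neither the distance of the biopsy from the graft nor the depth of tissue taken, and p-values measure only the spread between these arrays.

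The endothelium is the single cell layer that lines blood vessels and lymphatics. Its cells are held together by VE-cadherin (Cdh5), PECAM-1 (Pecam1) and claudin-5 (Cldn5). They receive growth and survival signals through the VEGF receptors Flt1, Kdr and Flt4 and through the angiopoietin receptor Tek with its partner Tie1. Lymphatic endothelium is set apart by the transcription factor Prox1 and by the surface proteins Lyve1 and podoplanin (Pdpn). Vessels around hair follicles are remodelled over the hair cycle, and inflamed skin vessels carry adhesion molecules that let leukocytes out. In whole skin, fewer vessel cells and less RNA per vessel cell cannot be told apart.

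ETS and SOX transcription factors are general regulators of endothelial genes, and members of both families (Erg, Ets1, Sox7, Sox17 and Sox18) are on the list. The promoters of the VEGF and Tie receptor kinases are shown because Kdr, Flt1 and Flt4 belong to 1 family and Flt1 read in the opposite direction to the other 2 on these arrays. This set was chosen after the values were seen. Each is RefSeq sequence of assembly GRCm38.p6, running from 250 bases before the annotated start of the gene to 50 bases after it, printed 5′ to 3′ on the strand of the gene. Capitals mark matches to the ETS words CAGGAA or CCGGAA and to the SOX word AACAAT, read on either strand. The windows lie at chr5:75978406-75978705 on the minus strand for Kdr, chr5:147725962-147726261 on the minus strand for Flt1, chr11:49609429-49609728 on the plus strand for Flt4, chr4:94739039-94739338 on the plus strand for Tek and chr4:118489800-118490099 on the minus strand for Tie1.
Kdr: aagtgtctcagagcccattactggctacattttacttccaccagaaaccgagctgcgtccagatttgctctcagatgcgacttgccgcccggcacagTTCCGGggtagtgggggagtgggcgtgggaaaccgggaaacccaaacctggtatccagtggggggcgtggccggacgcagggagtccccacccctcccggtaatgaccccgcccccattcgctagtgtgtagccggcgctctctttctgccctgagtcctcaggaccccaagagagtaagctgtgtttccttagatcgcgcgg
Flt1: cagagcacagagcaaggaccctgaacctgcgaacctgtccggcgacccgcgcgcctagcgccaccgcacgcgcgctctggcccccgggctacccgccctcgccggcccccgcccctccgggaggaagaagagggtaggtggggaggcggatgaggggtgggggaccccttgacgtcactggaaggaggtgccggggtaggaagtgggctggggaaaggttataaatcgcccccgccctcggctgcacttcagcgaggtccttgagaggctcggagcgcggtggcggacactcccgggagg
Flt4: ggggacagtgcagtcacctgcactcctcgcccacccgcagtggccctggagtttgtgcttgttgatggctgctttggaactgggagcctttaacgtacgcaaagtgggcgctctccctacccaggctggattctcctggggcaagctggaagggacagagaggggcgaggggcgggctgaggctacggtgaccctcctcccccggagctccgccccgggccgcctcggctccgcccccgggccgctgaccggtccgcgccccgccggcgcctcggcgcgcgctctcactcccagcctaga
Tek: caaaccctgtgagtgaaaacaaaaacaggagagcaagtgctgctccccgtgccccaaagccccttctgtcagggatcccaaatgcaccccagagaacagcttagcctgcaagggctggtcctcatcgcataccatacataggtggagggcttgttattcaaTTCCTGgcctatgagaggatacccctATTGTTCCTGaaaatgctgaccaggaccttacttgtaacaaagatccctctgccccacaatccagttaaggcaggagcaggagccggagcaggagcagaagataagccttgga
Tie1: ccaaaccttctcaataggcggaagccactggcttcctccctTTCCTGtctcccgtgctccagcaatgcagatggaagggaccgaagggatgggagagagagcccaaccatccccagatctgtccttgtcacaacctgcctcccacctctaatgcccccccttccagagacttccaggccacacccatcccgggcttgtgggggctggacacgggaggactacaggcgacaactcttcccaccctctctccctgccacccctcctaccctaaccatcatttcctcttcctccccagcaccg

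The windows of Kdr and Tie1 each held 1 ETS word. The window of Tek held 2 ETS words and 1 SOX word, and the SOX word overlapped an ETS word. Neither word was found in the windows of Flt1 and Flt4, which says only that these letters are not in these 300 bases. Promoter windows were matched by symbol for 22 of the 42 genes, with 28 windows since some genes have several starts. An ETS word stood in 17 of the 28 windows (60.7%), beside 41.4% of all 32851 windows, and the SOX word in 5 (17.9%), beside 10.7%. Windows on chromosome 18 were left out of the search.

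The arrays differed in ways that the groups do not describe. Vehicle replicate 5 correlated with each of the others at 0.697 to 0.729 over all probe sets, against 0.946 to 0.994 among the other 9 arrays. The highest, 0.994, was between baricitinib replicate 5 and vehicle replicate 4. The gap between 3′ and 5′ probes of control transcripts, a sign of RNA degradation, was 0.99 to 1.18 log2 on the baricitinib arrays and 3.03, 2.0, 4.35, 1.01 and 4.06 log2 on vehicle replicates 1 to 5. Cd8a, a cytotoxic T cell coreceptor gene outside the list, read 4.22 to 4.93 log2 on baricitinib replicates 1 to 4 and 10.02 on replicate 5, against 10.17 to 11.03 on vehicle replicates 1 to 4 and 4.81 on replicate 5. By this gene, baricitinib replicate 5 resembled most vehicle arrays, and vehicle replicate 5 resembled most baricitinib arrays. Groups were kept as labelled. Whether the labels of these 2 arrays were exchanged was not tested. An exchange would change every difference given here, including those of Flt1, Sox7 and Vcam1. After quality control the study dropped 1 vehicle array, which the labels leave unnamed, so all 10 arrays were used and results are also given without vehicle replicate 5. The keratinocyte gene Krt5 was high on all 10 arrays, from 13.04 to 13.67 log2.

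Most endothelial genes read higher on the baricitinib arrays, but none passed the test. The values are log2 expression, and differences are baricitinib minus vehicle. The difference was positive for 33 of the 42 genes and negative for 9, and it ranged from -0.74 for Aplnr to 1.72 for Tie1. The median was 0.65, beside 0.005 over all 18193 genes, of which 50.3% had a positive difference. Without vehicle replicate 5 the median was 0.49 over the endothelial genes and -0.06 over all genes, with 32 positive and 10 negative. Leaving out baricitinib replicate 5 instead gave a median of 0.75. With the 3′ to 5′ gap as a covariate the median was 0.53, and 0 endothelial genes passed the adjusted test. The gap of 4 of the 5 vehicle arrays lay outside the baricitinib range. Differences given with this covariate can therefore hardly separate the gap from the group, and its part in the differences was not tested further.

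At an adjusted p under 0.05 (limma, Benjamini-Hochberg over 45037 probe sets) 0% of all probe sets were called with 10 arrays or without vehicle replicate 5, and so 0 endothelial genes. The adjusted p of the 42 genes was 0.224 to 0.965, and at best 0.076 without vehicle replicate 5. At an unadjusted p under 0.05, 17 endothelial genes were higher and 0 lower with all arrays, which is 40.5% higher beside 9.81% of all genes higher and 6.22% lower. Without vehicle replicate 5 there were 16 higher and 3 lower (Pdpn, Sox7 and Ets1), beside 13.3% and 16.1% of all genes. The 2 groups of arrays did not overlap for 5 genes, all higher with baricitinib (Esam, Kdr, Tie1, Ramp2 and S1pr1), beside 3.80% of all genes higher and 1.82% lower. There were also 5 such genes without vehicle replicate 5, where the background was 4.53% higher and 4.73% lower.

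Weighting each array by how well it fitted its group changed the calls. The weights were estimated from the same data and were 0.0289 for vehicle replicate 5, 0.497 for vehicle replicate 4 and 5.43 for baricitinib replicate 1. Then 11 endothelial genes rose (Pecam1, Kdr, Tek, Tie1, Emcn, Eng, Esam, Prox1, Ramp2, Rasip1 and S1pr1) and 2 fell (Pdpn and Sox7), where 9.83% of all genes rose and 13.2% fell. With weights and without vehicle replicate 5, 6 rose (Pecam1, Kdr, Tek, Eng, Prox1 and Ramp2) and the same 2 fell, where 7.74% of all genes rose and 11.2% fell.

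**Figure D1:**
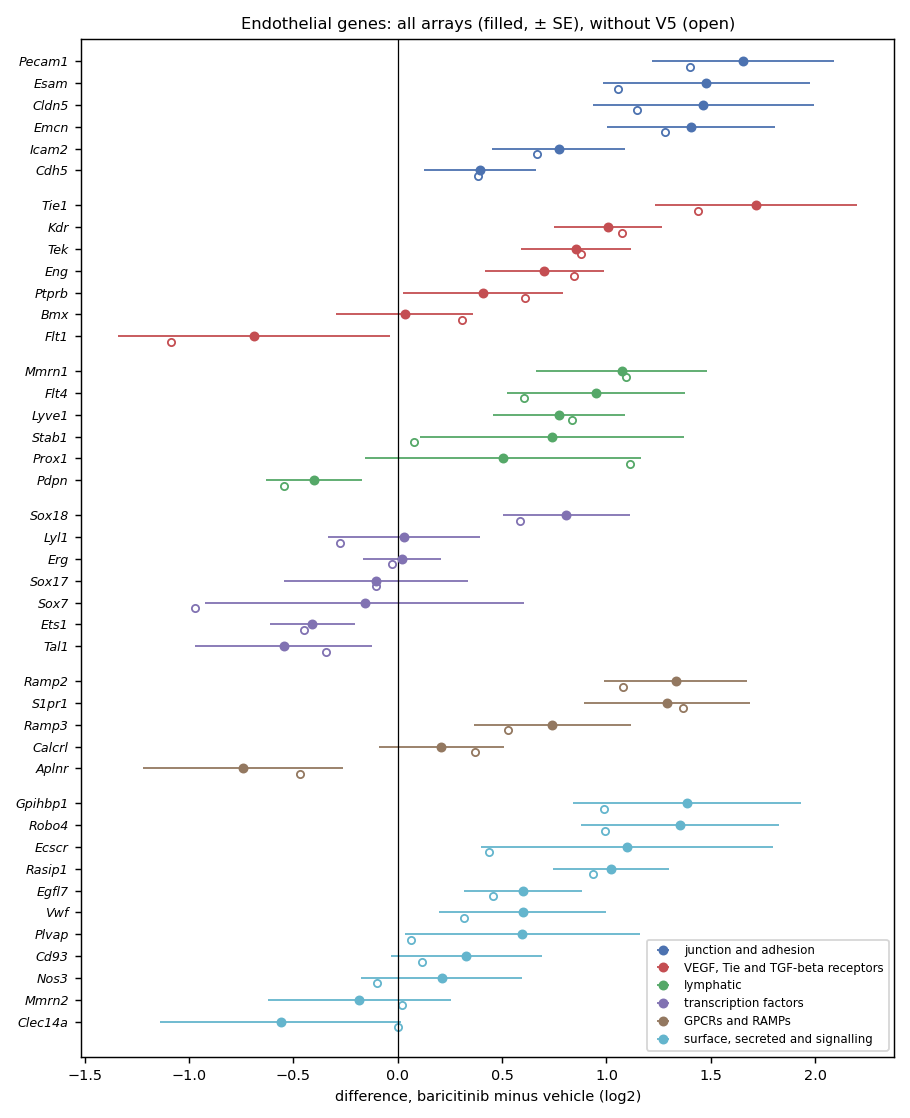
Difference of each of the 42 endothelial genes, baricitinib minus vehicle, on the log2 scale (x axis), with genes by role (y axis). Filled points with bars are the difference ± SE over all 10 arrays, and open points leave out vehicle replicate 5. The junction genes all lie right of 0, while 4 of 7 transcription factors and Flt1, Pdpn and Aplnr lie left of it.

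Within the treated group most vessel genes were highest on the same few arrays, as were markers of some other cell types. Among the 5 baricitinib arrays the highest value was on replicate 3 for 17 genes and on replicate 4 for 21, and the lowest was on replicate 2 for 12 genes and on replicate 5 for 28. The mean over the 42 genes was 7.99, 7.62, 8.55, 8.56 and 7.56 log2 on baricitinib replicates 1 to 5 and 7.51, 7.76, 7.73, 7.44 and 7.01 on vehicle replicates 1 to 5. By this mean, replicates 3 and 4 stood well above every vehicle array, while replicates 2 and 5 lay within the vehicle range. Replicate 5 lay within the range of vehicle replicates 1 to 4 for 27 genes, above it for 9 and below it for 6. None of these array counts was taken over all genes, so they have no background. Baricitinib replicates 3 and 4 were also the highest treated arrays for the means of pericyte, skeletal muscle and mast cell markers. High values there were thus not particular to vessel genes. The mean over all genes was 7.47 to 7.51 log2 on the baricitinib arrays.

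Lowest values on vehicle replicate 5 were about as common for vessel genes as over all genes. Vehicle replicate 5 had the lowest value of all 10 arrays for 20 of the 42 genes, near the background of 47.9% of all genes. It had the highest value for 6, a count that was not taken over all genes. Its mean over all genes was 6.98 log2, against 7.47 to 7.58 on the other arrays. Vehicle replicate 4, whose 3′ to 5′ gap of 1.01 log2 was within the baricitinib range, was lowest for 8. That count was not taken over all genes. This array lay below the whole baricitinib range for 19 genes, within it for 23 and above it for 0. On the same array 21.8% of all genes lay below that range and 18.9% above. That range includes baricitinib replicate 5, the array with which vehicle replicate 4 correlated best. The baricitinib mean exceeded vehicle replicate 4 for 35 genes, with a median excess of 0.73 log2, beside 0.0077 over all genes.

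**Figure D2:**
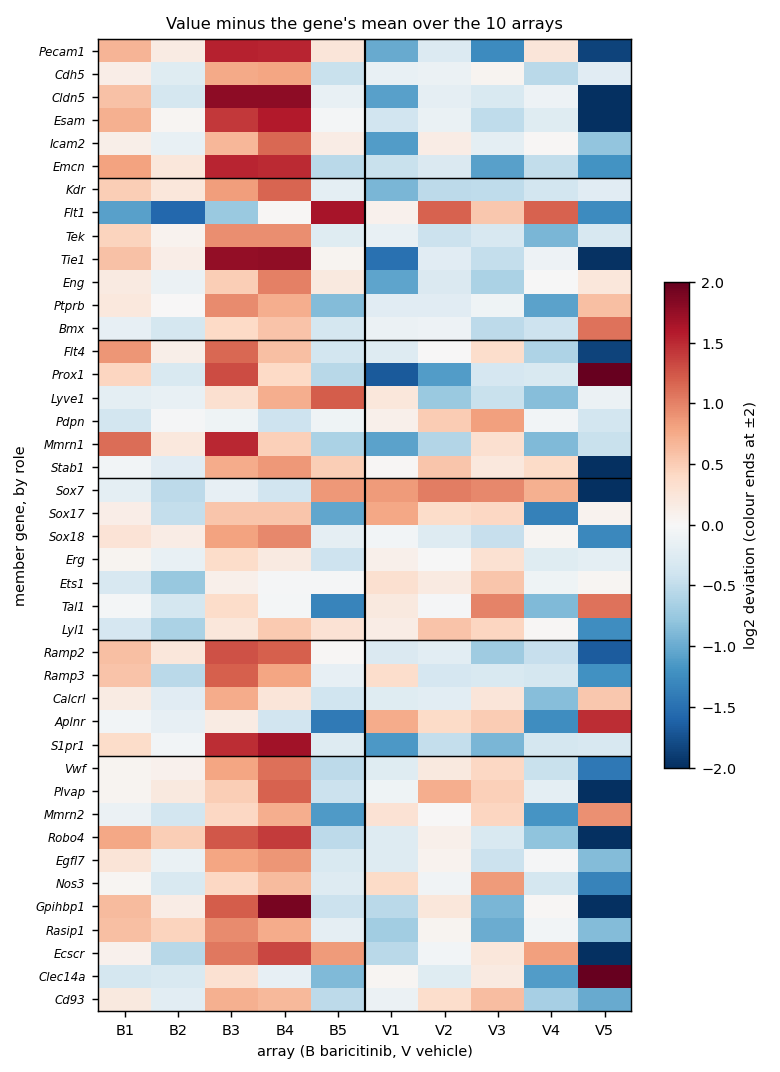
Each endothelial gene (rows, by role) on each array (columns, B baricitinib and V vehicle, number for replicate) as the log2 deviation from the mean of the gene over the 10 arrays, with colours ending at 2 log2 on either side. Baricitinib replicates 3 and 4 are red for most genes and vehicle replicate 5 is mixed, with dark blue and dark red fields.

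The junction and adhesion genes had the highest median difference of the 6 role groups, 1.43 log2 with all arrays and 1.10 without vehicle replicate 5, and all 6 were positive. Pecam1, which encodes the adhesion protein of endothelial contacts, read 7.61, 7.10, 8.47, 8.46 and 7.18 log2 on baricitinib replicates 1 to 5 and 5.94, 6.66, 5.69, 7.18 and 5.09 on vehicle replicates 1 to 5. Vehicle replicate 4 was the only vehicle array inside the baricitinib range. The difference was 1.65 ± 0.44 (SE, n = 5 and 5), or 3.15-fold, with an adjusted p of 0.226. It was 1.40 without vehicle replicate 5, and 0.61 with the 3′ to 5′ gap as a covariate.

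Cdh5, the cadherin of endothelial junctions, differed much less. It read 6.38, 5.99, 6.99, 7.04 and 5.79 log2 with baricitinib and 6.09, 6.13, 6.29, 5.70 and 6.01 with vehicle. Baricitinib replicates 2 and 5 fell within the vehicle range, and the difference of 0.39 ± 0.27 had an adjusted p of 0.452. Esam, an endothelial adhesion protein of tight junctions, read 7.96, 7.29, 8.67, 8.83 and 7.21 log2 with baricitinib and 6.88, 7.12, 6.75, 7.02 and 4.82 with vehicle. Its groups did not overlap, narrowly so between baricitinib replicate 5 and vehicle replicate 2, and the difference was 1.48 ± 0.50 (adjusted p = 0.260), or 1.05 without vehicle replicate 5 and 0.72 with the gap as a covariate. Cldn5 (1.46), the sialomucin Emcn (1.40) and the leukocyte ligand Icam2 (0.77) were also positive, each with overlapping groups.

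Of the 7 receptor kinases and their partners, 6 read higher with baricitinib. Kdr, the main signalling receptor for VEGF-A, read 7.55, 7.28, 7.90, 8.23 and 6.86 log2 on the baricitinib arrays and 6.15, 6.54, 6.56, 6.70 and 6.83 on the vehicle arrays. Every baricitinib array was above every vehicle array, narrowly so for baricitinib replicate 5 and vehicle replicate 5. The difference was 1.01 ± 0.26, or 2.01-fold (adjusted p = 0.224), and 1.08 without vehicle replicate 5 (adjusted p = 0.076). It was 0.99 with the 3′ to 5′ gap as a covariate.

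Tie1, the orphan partner of the angiopoietin receptor, had the largest difference on the list. Its values were 7.01, 6.57, 8.18, 8.20 and 6.49 log2 with baricitinib and 4.93, 6.19, 5.95, 6.32 and 4.45 with vehicle, and the groups did not overlap. The difference was 1.72 ± 0.48 (adjusted p = 0.229), 1.44 without vehicle replicate 5 and 1.02 with the gap as a covariate. Tek, the angiopoietin receptor itself, differed by 0.85 (adjusted p = 0.240) and the TGF-beta coreceptor Eng by 0.70. The phosphatase Ptprb, which acts on Tek, differed by 0.41, and the cytoplasmic kinase Bmx by 0.03.

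Flt1 went the other way on all 4 of its probe sets. Flt1 binds VEGF-A tightly, signals weakly and, in its soluble form, acts as a decoy. Its representative probe set read 7.78, 7.28, 8.12, 8.88 and 10.51 log2 on the baricitinib arrays and 8.94, 10.04, 9.39, 10.04 and 7.60 on the vehicle arrays. Baricitinib replicates 1 to 4 lay below vehicle replicates 1 to 4, while baricitinib replicate 5 was the highest of all and vehicle replicate 5 among the low ones. The difference was -0.69 ± 0.65 with all arrays (adjusted p = 0.539), -1.09 without vehicle replicate 5, -1.19 without baricitinib replicate 5 and -1.65 with the gap as a covariate.

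The dimmer Flt1 probe sets showed this order more sharply, apart from 1 on which vehicle replicate 5 was not low. On the dimmest, baricitinib replicates 1 to 4 read 5.16 to 5.49 log2 and replicate 5 read 7.90, while vehicle replicates 1 to 4 read 7.27 to 8.20 and replicate 5 read 5.29. Its difference was -1.41, and those of the other 2 were -1.25 and -1.06, the last with the smallest p among the 4 (limma, adjusted p = 0.237). The mean of 6 leukocyte and T cell markers had the same order, at 8.03, 7.23, 8.41, 8.48 and 9.90 log2 on the baricitinib arrays and 9.90, 10.41, 10.10, 9.98 and 7.31 on the vehicle arrays. Of those 6 markers 5 had a negative difference, and their part in the Flt1 result was not tested. Flt1 was described beyond its role group after its values were seen, as were Esam, S1pr1, Sox7 and Pdpn.

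**Figure D3:**
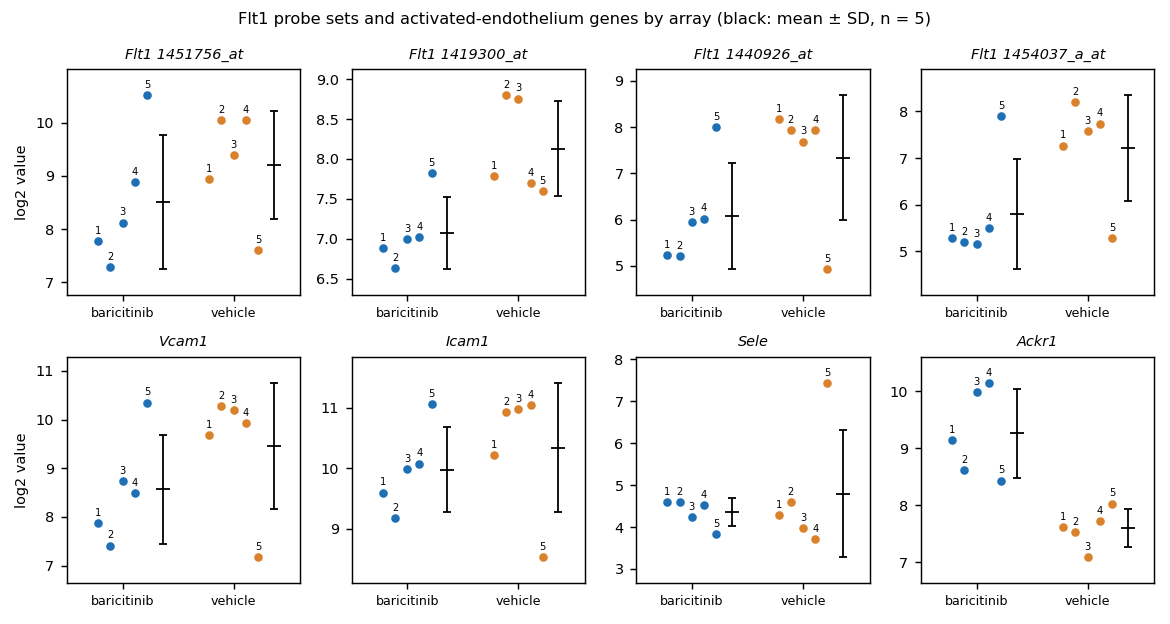
Log2 values (y axis, each panel with its own range) of the 4 Flt1 probe sets and of 4 genes of activated endothelium on each array, with the replicate number at each point and the mean ± SD (n = 5) in black. On the Flt1 probe sets, Vcam1 and Icam1, baricitinib replicate 5 sits with vehicle replicates 1 to 4, whereas for Ackr1 all 5 baricitinib arrays are above the vehicle arrays.

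Receptors coupled to G proteins and their modifying proteins had a median difference of 0.74, or 0.53 without vehicle replicate 5. Ramp2, which turns the receptor encoded by Calcrl into an adrenomedullin receptor, read 9.93, 9.56, 10.60, 10.53 and 9.35 log2 with baricitinib and 9.04, 9.12, 8.62, 8.87 and 7.66 with vehicle. The groups did not overlap. The difference was 1.33 ± 0.34, or 2.52-fold (adjusted p = 0.224), and 1.08 without vehicle replicate 5 (adjusted p = 0.078). It was 0.84 with the gap as a covariate.

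S1pr1, a receptor for sphingosine-1-phosphate that steadies the vessel barrier and is also used by lymphocytes, read 5.49, 5.06, 6.59, 6.81 and 4.86 log2 with baricitinib and 3.98, 4.64, 4.20, 4.76 and 4.79 with vehicle. The groups were apart, though baricitinib replicate 5 was only just above the highest vehicle arrays. The difference was 1.29 ± 0.40 (adjusted p = 0.240). Calcrl itself differed by 0.21 and the sister protein Ramp3 by 0.74. The apelin receptor Aplnr was negative on its brighter probe set, at -0.74, and positive on the dimmer one, at 0.71.

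Of 6 lymphatic genes 5 read higher with baricitinib, and none passed the test. Their median difference was 0.76 log2, beside 0.60 for the 36 other endothelial genes. Without vehicle replicate 5 these were 0.72 and 0.45. The difference between the 2 sets of genes was not tested.

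Prox1, the factor that specifies lymphatic identity, read 6.97, 6.23, 7.85, 6.95 and 6.0 log2 with baricitinib and 4.87, 5.43, 6.21, 6.24 and 8.72 with vehicle. Vehicle replicate 5 had the highest value of all, and the other 4 vehicle arrays reached no higher than about the second lowest baricitinib array. The difference was 0.51 ± 0.66 with all arrays (adjusted p = 0.650) and 1.11 ± 0.41 without vehicle replicate 5 (adjusted p = 0.127), and 1.26 with the gap as a covariate. On its other 2 probe sets, which were dim, the difference was -0.99 and -0.17.

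Lyve1, the hyaluronan receptor of lymphatic capillaries, which some skin macrophages also carry, read 8.11, 8.14, 8.62, 9.03 and 9.50 log2 with baricitinib and 8.52, 7.56, 7.85, 7.45 and 8.17 with vehicle. Here baricitinib replicate 5 was the highest array, unlike for most vessel genes. The difference was 0.77 ± 0.32 (adjusted p = 0.311). Mmrn1, an extracellular protein of platelets and lymphatic endothelium, read 8.35, 7.44, 8.74, 7.71 and 6.59 log2 with baricitinib and 6.16, 6.65, 7.55, 6.34 and 6.79 with vehicle. Its highest 3 values were on baricitinib arrays, but baricitinib replicate 5 lay among the vehicle arrays, and the difference was 1.07 ± 0.41 (adjusted p = 0.288). On the other Mmrn1 probe set, which was dim, it was -0.68, or -0.04 without vehicle replicate 5.

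The VEGF-C receptor Flt4 differed by 0.95 with all arrays and by 0.61 without vehicle replicate 5. Stab1, a scavenger receptor of endothelium and macrophages, differed by 0.74 and by 0.08 in turn, so that its difference rested on vehicle replicate 5. Pdpn was the lymphatic gene with a negative difference. Podoplanin is also made by keratinocytes and fibroblasts, and its values were 11.15, 11.50, 11.43, 11.10 and 11.43 log2 with baricitinib and 11.62, 12.03, 12.35, 11.46 and 11.15 with vehicle. Vehicle replicates 2 and 3 were highest and the rest were close together, with a difference of -0.40 ± 0.23 (adjusted p = 0.408), or -0.54 without vehicle replicate 5.

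**Figure D4:**
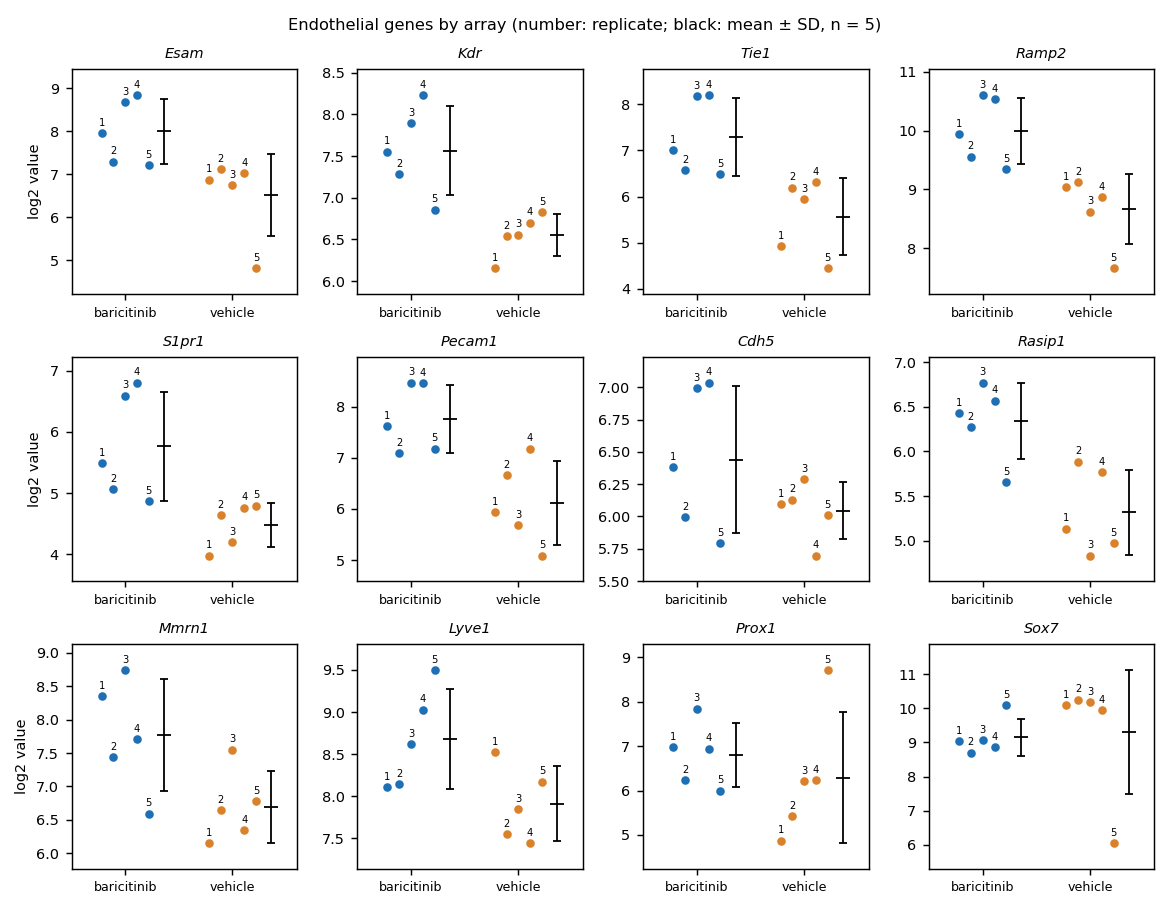
Log2 values (y axis, each panel with its own range) of 12 endothelial genes on each baricitinib and vehicle array, with the replicate number at each point and the mean ± SD (n = 5) in black. The groups are apart for Esam, Kdr, Tie1, Ramp2 and S1pr1, and vehicle replicate 5 is far from the other vehicle arrays for Esam, Prox1 and Sox7.

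The transcription factors had small and mixed differences. The median of the 7 was -0.11 log2, or -0.28 without vehicle replicate 5, and 3 were positive. Sox18, a factor of blood and lymphatic vessel development, read 6.58, 6.45, 7.11, 7.26 and 6.12 log2 with baricitinib and 6.25, 6.04, 5.83, 6.34 and 5.02 with vehicle. Only baricitinib replicate 5 lay below any of the higher vehicle arrays, and the difference was 0.81 ± 0.30 (adjusted p = 0.286), or 0.31 with the gap as a covariate. The ETS factor Erg, a keeper of endothelial identity, differed by 0.02, and Sox17 by -0.11.

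Sox7 followed the order of Flt1 rather than that of its relative Sox18. It read 9.03, 8.70, 9.06, 8.85 and 10.10 log2 with baricitinib and 10.09, 10.26, 10.19, 9.95 and 6.06 with vehicle. Baricitinib replicates 1 to 4 were close together and below vehicle replicates 1 to 4, while replicate 5 of each group lay far from its own group. The difference was -0.16 ± 0.76 with all arrays (adjusted p = 0.908) and -0.97 ± 0.26 without vehicle replicate 5 (adjusted p = 0.082). Leaving out any 1 of vehicle replicates 1 to 4 instead put it at 0.00026 to 0.079, and the gap as a covariate at -1.20.

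Ets1, which lymphocytes also use, differed by -0.41 on its brightest probe set and by 0.04, 0.95 and 0.70 on the others. The blood and endothelial factors Tal1 and Lyl1 differed by -0.55 and 0.03.

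Among the other surface, secreted and signalling genes, 9 of 11 were positive, with a median of 0.60 log2 or 0.32 without vehicle replicate 5. Rasip1, needed for vessels to form a lumen, read 6.43, 6.27, 6.77, 6.57 and 5.65 log2 with baricitinib and 5.14, 5.89, 4.83, 5.77 and 4.97 with vehicle. Baricitinib replicate 5 was the 1 treated array among the vehicle arrays, and the difference was 1.02 ± 0.28 (adjusted p = 0.227), or 0.43 with the gap as a covariate.

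Gpihbp1, which carries lipoprotein lipase to the capillary lumen and is found where fat and muscle take up lipid, read 8.07, 7.58, 8.64, 9.34 and 7.0 log2 with baricitinib and 6.90, 7.66, 6.52, 7.46 and 5.15 with vehicle. Baricitinib replicates 2 and 5 overlapped vehicle replicates 2 and 4. The difference was 1.39 ± 0.55 (adjusted p = 0.299), 0.99 without vehicle replicate 5 and 0.34 with the 3′ to 5′ gap as a covariate. The guidance receptor Robo4 differed by 1.35 and the surface protein Ecscr by 1.10, or by 0.99 and 0.44 without vehicle replicate 5.

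Some familiar vessel markers of this group had smaller differences once vehicle replicate 5 was left out. The clotting protein Vwf went from 0.60 to 0.32, the diaphragm protein Plvap from 0.60 to 0.06, the nitric oxide synthase Nos3 from 0.21 to -0.10 and the lectin Cd93 from 0.33 to 0.12. Clec14a, a lectin related to Cd93, was -0.56 with that array and 0.0031 without it. The matrix protein Mmrn2, which binds both lectins, differed by -0.18 and 0.02, and the secreted protein Egfl7 by 0.60 and 0.46.

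Probe sets of 1 gene often disagreed. The 18 genes with several probe sets had 1 sign on all of them in 7 cases with all arrays and in 8 without vehicle replicate 5. Flt1 was among those that agreed. With all arrays, Calcrl, Cdh5, Mmrn1, Prox1 and Ptprb disagreed only through dim probe sets, with means of 2.39 to 3.83 log2. For Cd93 the second brightest probe set differed by 1.39, against 0.33 on the brightest, and for Eng the second probe set differed by -0.22, against 0.70.

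A second list held 48 measured angiogenic ligands and other vascular genes that were not among the 42. Of these 32 were positive with all arrays, with a median of 0.32 log2 or 0.22 without vehicle replicate 5, and 0 passed the adjusted test. At an unadjusted p under 0.05, 11 were higher and 0 lower, beside the 9.81% and 6.22% of all genes. Without vehicle replicate 5, 10 were higher and 5 lower, beside 13.3% and 16.1%. The 3 with the smallest p were Thbd, Podxl and Hey1. Thrombomodulin (Thbd), an anticoagulant of the vessel wall, read 11.33, 10.93, 11.71, 11.44 and 10.56 log2 with baricitinib and 10.30, 10.10, 10.33, 10.06 and 9.20 with vehicle, without overlap. It differed by 1.19, the sialomucin Podxl by 1.22 and the Notch target Hey1 by 1.06.

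The VEGF ligands were mixed, and the size of their differences changed without vehicle replicate 5. Vegfa, the ligand of Kdr and Flt1, read 8.20, 7.87, 8.73, 8.80 and 9.63 log2 with baricitinib and 9.22, 9.20, 10.02, 10.14 and 8.27 with vehicle. Its difference was -0.73 (adjusted p = 0.406), or -1.0 without vehicle replicate 5, and it shared the order of Flt1, with baricitinib replicate 5 high and vehicle replicate 5 low. The lymphatic ligands Vegfc and Vegfd differed by -0.34 and -1.05, and by 0.0043 and -0.67 without vehicle replicate 5. Placental growth factor (Pgf) differed by -0.28 and Vegfb, a ligand of Flt1, by 0.85, and without that array by -0.67 and 0.49. These ligands were picked out after their values were seen.

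Genes of activated endothelium split. Of 8 measured, 3 were positive, with a median of -0.12, and 4 without vehicle replicate 5, with a median of 0.02, so that the sign of the median turned on that array. Ackr1, the chemokine-binding receptor of venules, read 9.14, 8.61, 9.99, 10.14 and 8.43 log2 with baricitinib and 7.62, 7.53, 7.10, 7.72 and 8.03 with vehicle, so that the groups were apart, and it differed by 1.66 (adjusted p = 0.221). Vcam1, the leukocyte ligand induced by inflammation, read 7.87, 7.41, 8.73, 8.50 and 10.35 log2 with baricitinib and 9.68, 10.28, 10.20, 9.92 and 7.18 with vehicle, a difference of -0.88 or -1.45 without vehicle replicate 5. Icam1 had the same order, from 9.17 to 10.08 log2 on baricitinib replicates 1 to 4 and 11.06 on replicate 5, against 10.21 to 11.05 on vehicle replicates 1 to 4 and 8.53 on replicate 5. Both are also made by other skin cells. Sele, the selectin of activated endothelium, was low on 9 arrays, from 3.71 to 4.60 log2, and read 7.43 on vehicle replicate 5. Icam1 was named after its values were seen.

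Genes of several other cell types also read higher with baricitinib. Their array order matched that of the vessel genes in part or, for mast cell markers on the baricitinib arrays, in full. All 11 markers of pericytes and smooth muscle, which wrap vessels, had positive differences, with a median of 0.86 log2 or 0.65 without vehicle replicate 5. Their mean was 9.12 to 10.14 log2 on the baricitinib arrays and 7.66 to 9.19 on the vehicle arrays, highest on baricitinib replicates 3 and 4 as for the endothelial genes. All 6 measured adipocyte markers were positive (median 1.38), with means of 8.82 to 10.59 and 7.75 to 8.66 log2. All 5 mast cell markers were positive (median 1.62), with means of 8.70 to 10.06 and 6.43 to 8.06 log2. On baricitinib replicates 1 to 5 the mast cell mean was 9.30, 9.13, 9.77, 10.06 and 8.70 log2.

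Skeletal muscle markers were positive in 6 of 8 cases (median 0.87), with means of 11.03 to 12.59 log2 on the baricitinib arrays and 10.54 to 11.90 on the vehicle arrays. The fibroblast markers had a median of 0.33 with 5 of 6 positive. Keratinocyte, platelet and macrophage markers were mixed, at 2 of 5, 3 of 5 and 4 of 6. The part of these cell types in the endothelial differences was not tested.

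**Figure D5:**
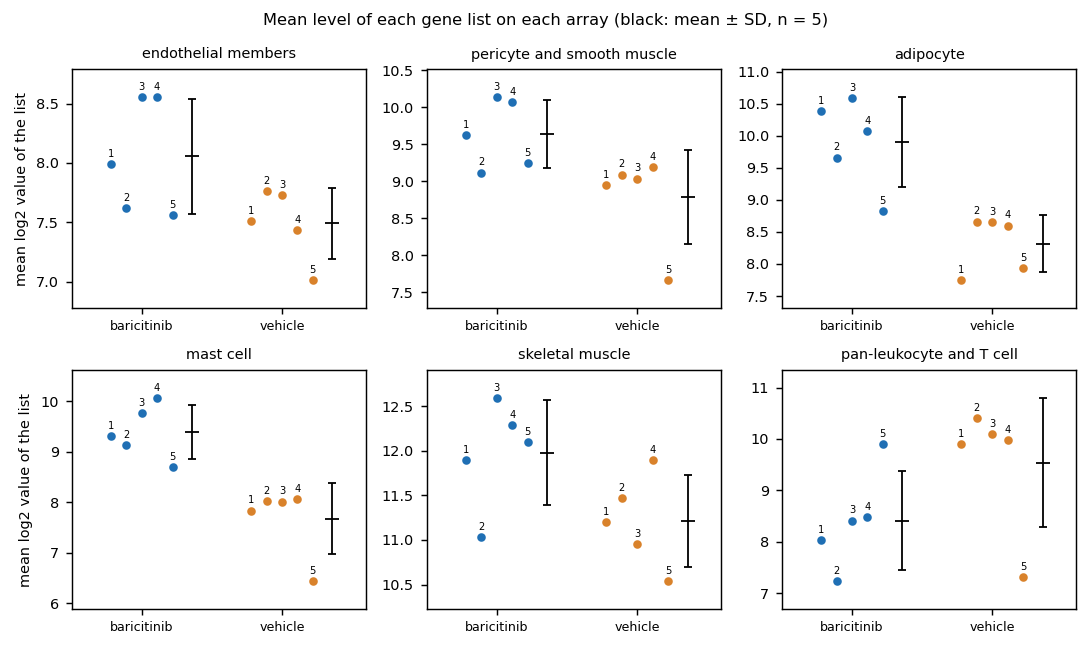
Mean log2 value of the 42 endothelial genes and of 5 marker lists of other cell types (y axis, each panel with its own range) on each array, with the replicate number at each point and the mean ± SD (n = 5) in black. The endothelial, pericyte, adipocyte and mast cell panels are highest on baricitinib replicates among 1, 3 and 4, while the leukocyte panel is high on baricitinib replicate 5 and vehicle replicates 1 to 4.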

How the data were processed

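Total RNA from 10 skin samples was amplified with NuGen reagents and read on Affymetrix GeneChips. The authors deposited 1 log2 expression value for each probe set and array, from an RMA run on this experiment alone (version not given in the sources used here). The arrays did not share 1 distribution: their SD over probe sets was 2.28 on vehicle replicate 5 and 2.71 to 2.79 on the others. Precision is limited by the number of arrays. Groups and replicate numbers came from the sample titles. Of 45101 probe sets, 64 controls were set aside and 45037 were tested without a filter using limma 3.58.1 in R 4.3.3 (two-sided moderated test of lmFit and eBayes, with Benjamini-Hochberg adjustment and a threshold of 0.05). Genes were named from probe sets with 1 symbol in the platform annotation. Replicates were checked for identical values, and the fit was tested on simulated data. The members and lists were chosen with earlier results of these data known. Given array by array are, in each role group, the gene with the smallest p and the one with the largest difference, and Pecam1, Cdh5, Kdr, Prox1 and Lyve1. Of other lists, at most the 3 with the smallest p are named, apart from genes said to be chosen after their values were seen. Alternatives were other normalizations, filters, weights, covariates, probe set choices and each array left out.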

Additional observations from a re-analysis of the deposited data

Results flagged for a closer look

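Single arrays far from the rest of their group were looked for with Dixon's test in 36 groups of 5 arrays, and 3 were found. Chance alone singles out about 5% of such groups. Sox7 and Esam, which gave the 3, were described after their values were seen, and the groups share the same arrays. The 5% therefore cannot be used to judge these 3 results. Sox7 read 10.1 log2 on baricitinib replicate 5, where the other baricitinib arrays read 8.703 to 9.064. Sox7 also read 6.055 log2 on vehicle replicate 5, where the others read 9.947 to 10.26. Esam read 4.819 log2 on vehicle replicate 5, where the others read 6.748 to 7.117.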

How the results depend on the processing

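With all arrays 0 probe sets and 0 endothelial genes passed the adjusted test (limma). Array weights moved these to 9676 probe sets and 13 genes, and array weights without vehicle replicate 5 (chosen after seeing the data) to 7869 and 8. Leaving out 1 array at a time gave 0 to 848 probe sets, with 12 without baricitinib replicate 5 and 848 without vehicle replicate 4, and 0 endothelial genes each time. With 1 array left out the median endothelial difference was 0.49 to 0.76, the lower value without vehicle replicate 5, and the lymphatic median 0.65 to 0.90. Array weights put the endothelial median at 0.47 with all arrays and at 0.46 without vehicle replicate 5. The mean of all probe sets of a gene put the lymphatic median at 0.43 and Mmrn1 at 0.20, and turned Prox1 to -0.22. Sox7 ranged from -0.97 to 0.079 with 1 array left out, and was positive without vehicle replicate 1 (0.036), 2 (0.079), 3 (0.062) or 4 (0.00026). With the replicate block the endothelial median was 0.65, the lymphatic median 0.76, and 0 probe sets and 0 genes passed. Same-numbered arrays did not deviate together (correlations 0.088, 0.046, -0.032, -0.11 and -0.23, and 1 pair correlated best with its own number). The check gave no sign that the numbers pair the mice, but with so few arrays it cannot exclude a pairing. Quantile normalization and median centring gave endothelial medians of 0.52 and 0.58, and the 3′ to 5′ gap as a covariate 0.53 with a lymphatic median of 0.95. Dropping genes that other skin cells also express left 27 genes with a median of 0.60. Only 2 of the 6 lymphatic genes were left, with a median of 0.73. Limits are the small number of mice, 1 vehicle array that stood apart, and a 3′ to 5′ gap that differed between groups.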
